A study of Mus musculus with 30 samples.

Results

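Cps1 encodes carbamoyl phosphate synthetase 1, the mitochondrial enzyme that turns ammonia and bicarbonate into carbamoyl phosphate. In hepatocytes carbamoyl phosphate enters the urea cycle, through which the body disposes of nitrogen. In enterocytes of the small intestine the same reaction feeds the synthesis of citrulline, which other organs use to make arginine. Cps1 was followed here with 1 probe, Z00051409-1, named through gene lists of the study, out of 25030 probes in the authors' value table, and on all 30 arrays of the series. The probe was chosen by its measured levels in liver and intestine on these same arrays, so its levels are given as a description with no test.

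The study asked, on its adult tissue side, how the responsiveness of genes to manipulated transcription factors relates to where in the body they are expressed. RNA came from 15 organs of adult male C57BL/6 mice with no treatment and no altered allele named in the labels: liver, stomach, small intestine and large intestine of the digestive system; brain cortex, cerebellum and eyes; heart, muscle and lung; kidney and bladder; skin, bone and fat. The labels record an age of 28 weeks, and the study's methods give another age. Each organ had 2 arrays, which the series description assigns to different animals, except that it names a single replication for bone and fat although 2 arrays of each are labelled. On every array the dye Cy3 carried the RNA of the organ and the dye Cy5 a common reference, made of RNA pooled from cultured mouse cell lines (a liver/hepatocyte line among them) and of 129ES cell RNA. Values are log2(Cy3/Cy5) after background correction and loess, so that 0 means as much signal as in the reference and each unit stands for a doubling. A spot is called well above background where the scanner software marked its signal so.

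Between 58.0% and 78.3% of the probes of the table were well above background in Cy3 on an array. Over the 21019 probes with such signal on both arrays of at least 1 organ, the arrays of an organ correlated with r between 0.947 and 0.991 in 12 organs, and with r = 0.671 in fat, 0.798 in large intestine and 0.848 in bone. The first large intestine array correlated more closely with both small intestine arrays (r = 0.884 and 0.895) than with the second large intestine array. Those values run over probes, and probes are no independent replicates. The Cps1 gap to large intestine is therefore given with and without each of its arrays. The liver arrays shared slide 3 with heart and were scanned on day 1, whereas the small intestine arrays were scanned on day 3. Liver and small intestine thus had no slide or day in common, and a difference between them cannot be told apart from one between scan days.

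The array holds 1 spot of this probe, a 60-mer with a GC content of 40.0% (median of the probes in the table, 43.3%). The middle of its sequence, positions 13 to 42 from the 5′ end, is shown because it holds the longest stretch shared with another probe, in capitals.
Z00051409-1: atccttgCTTCAGGTTTTAGAAgatgtcag
The capitals mark 15 bases that recur on the opposite strand of 1 other probe. Compared with 42005 other probes on both strands, no longer exact stretch of the Cps1 probe was found. A stop codon was present in each of the 3 forward reading frames of the 60-mer. No place in the genome is given for it, since the array files list the probe as unmapped and no genome was used here.

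Cps1 was highest in liver and next in small intestine. In all organs outside liver and intestine its log2 ratio was near 0, but most of these arrays had no Cy3 signal well above background. A ratio near 0 there does not show a level equal to that of the reference. The liver arrays read 9.06 and 8.87, a mean log2 ratio of 8.96 ± 0.14 (SD, n = 2). The small intestine arrays read 7.0 and 6.66, a mean of 6.83 ± 0.24 (SD, n = 2). Both liver arrays lay above both small intestine arrays, and these above all other arrays of the series. The large intestine arrays read 4.34 and -0.14, so that the first lay far above and the second among the other organs. The 24 arrays of the other 12 organs lay between -0.60 (kidney replicate 2) and 0.32 (eyes replicate 1), with a median of -0.30. No array of these organs reached either small intestine array or the first large intestine array.

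**Figure D1:**
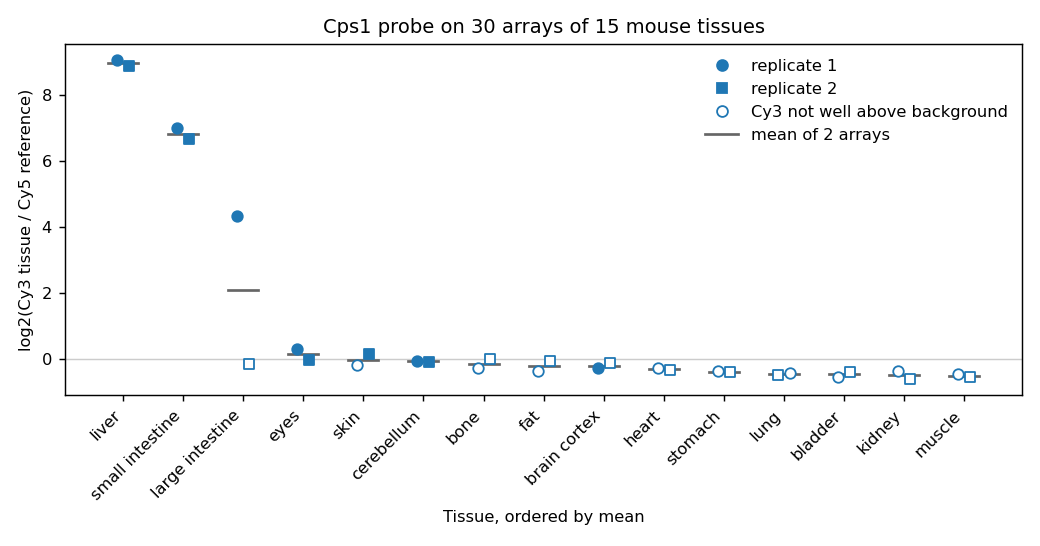
The log2 ratio of tissue to reference RNA for the Cps1 probe on each of 30 arrays, by organ in the order of the mean of 2 arrays (grey bar); circles are replicate 1, squares replicate 2, and open symbols mark Cy3 signals not well above background. Liver (8.96) and small intestine (6.83) stand apart, the large intestine arrays differ from each other (4.34 and -0.14), and the other 24 arrays lie between -0.60 and 0.32.

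In the order of the 15 organ means, large intestine (2.10 ± 3.17, SD, n = 2) was followed by eyes at 0.15, skin at -0.01, cerebellum at -0.06, bone at -0.12, fat and brain cortex at -0.19 each, heart at -0.30, stomach at -0.37, lung at -0.43, bladder at -0.45, kidney at -0.48 and muscle at -0.49. Among the 14 pairs of neighbours in that order, the 2 arrays of the one organ were clear of those of the next in 4. These were liver and small intestine, small intestine and large intestine, heart and stomach, and stomach and lung, the last 2 with gaps of only 0.07 and 0.06. No other neighbours differed beyond their spread. In heart, stomach, lung, bladder, kidney, muscle, fat and bone neither array had a Cy3 signal well above background, so the order among these 8 organs has no measured level behind it.

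The same arrays stood out in the signals behind these ratios. The Cps1 spot had a Cy3 mean signal of 39281 and 27804 scanner units in liver, against local backgrounds of 50 and 47. In small intestine the signals were 6670 and 2455. The first large intestine array gave 742 and the second 61.7. On the 24 arrays of the other organs the signal lay between 52.1 and 88.4, with a median of 67.7. The dimmer liver array was thus 314 times as bright as the brightest of those 24, and the dimmer small intestine array 27.8 times, with background left in these signals.

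Cy3 was well above background on 11 of 30 arrays. These were the 4 liver and small intestine arrays, the first large intestine array, and 6 of the 24 others (both of eyes and of cerebellum, brain cortex replicate 1 and skin replicate 2). The reference channel Cy5 was well above background on 11 arrays too, which were not all the same ones: it was not on the second small intestine array or the first large intestine array. For the 8 organs in which no array was well above background the Cps1 level has only an upper bound, and no fold against them is given. No Cps1 spot was saturated, but on both liver arrays, and on no other, the software had rescaled the Cy3 signal from a scan at lower gain.

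The reference channel of the Cps1 spot was not level across the series either. The reference RNA in Cy5 did not differ by design between arrays, and its mean signal for this spot was 287 and 257 on the liver arrays. The other 28 arrays gave between 80.0 and 138 in Cy5, with a median of 97.7. Both liver arrays therefore had a higher Cy5 signal than any other array, on spots whose Cy3 signal was also the highest. The part of this difference in the liver ratios was not tested.

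**Figure D2:**
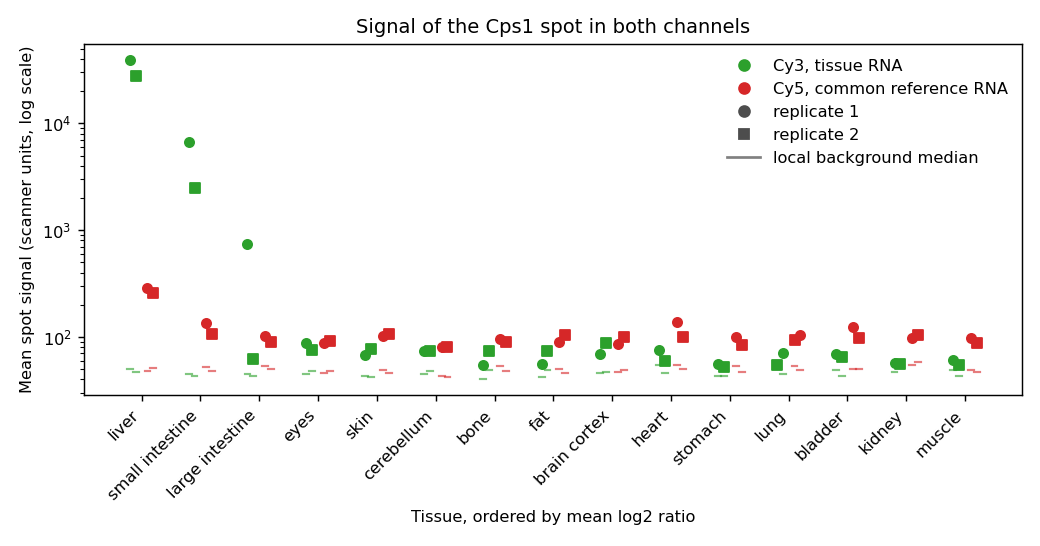
Mean signal of the Cps1 spot in scanner units on a log axis, in Cy3 (organ RNA, green) and Cy5 (common reference, red), for 30 arrays in the order of the mean log2 ratio; circles are replicate 1, squares replicate 2, and short lines the local background median. Cy3 spans 52.1 to 39281, and the red points are highest on the liver arrays (287 and 257).

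Liver exceeded the mean of the 12 organs outside liver and intestine by 9.21 in log2, and small intestine exceeded it by 7.07. Both differences share the same 12 organs. Since only 6 of the 24 arrays of those organs had a Cy3 signal well above background, these and the next values are differences of log2 ratios from a level mostly not well above background, not measured folds. The log2 ratio in liver was above that in heart, which shared slide 3, by 9.26, and above that in the other organs scanned on day 1 by 9.23. Small intestine was higher than muscle by 7.53 and than skin by 7.01 on slide 7, and higher than stomach by 7.03 on slide 8. The size of the liver difference depended on the processing: it was 7.81 with arrays centred on the median in place of loess and 10.41 with the scanner's processed signals. The small intestine difference was 5.80 with median centring, 6.26 with slide as a random block and 9.16 with processed signals. An order of liver first and small intestine second was found in 274 of 20852 probes with a value in every organ, and liver first and kidney second in 448.

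Between liver and small intestine Cps1 differed by 2.13 in log2, or 4.39-fold on the ratio scale. Each of the 4 pairs of arrays gave the same direction, and the dimmer liver array had 4.17 times the Cy3 mean signal of the brighter small intestine array. The gap was 1.25 (2.39-fold) with the scanner's processed signals and with the authors' value table. It widened to 3.03 (8.18-fold) with slide, and to 3.12 (8.69-fold) with scan day, as a random block. The 2 organs shared no slide or day, so neither block could compare them directly. With the slide block the difference from the 12 organs fell from 7.07 to 6.26 in small intestine. In liver it went from 9.21 to 9.29. In RNA of whole organs, fewer cells that express a gene and less RNA per cell cannot be told apart.

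Small intestine exceeded large intestine by 4.73 in log2, a value that rests on 2 large intestine arrays 4.48 apart. No other organ had a gap between its arrays above 0.34 for this probe. Against the first large intestine array alone the difference was 2.49, and against the second alone 6.97. On that second array Cps1 was not well above background, so 6.97, 4.48 and 4.73 are differences from a level that was not measured, and no fold is given. Within slide 8, which held the second small intestine array and the first large intestine array, it was 2.32. The second large intestine array differed by 0.11 from the bone array of its own slide. In large intestine 25.3% of all probes tested differed by more than 1 between its 2 arrays, and in small intestine 1.28%.

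The marker genes of the gut epithelium were read on the same 4 arrays. Of 23 enterocyte markers listed, 8 had a named probe and 7 passed the filter. Sis, sucrase-isomaltase of the brush border of the small intestine, read 9.02 and 9.51 in small intestine, 7.91 on the first and -0.46 on the second large intestine array. It was the only one of these 7 with large intestine arrays more than 1 apart, and Cps1 had the same high and low arrays. Lct, lactase, read 4.61 and 5.47 in small intestine and 0.64 and 0.83 in large intestine. Ada, adenosine deaminase, read 5.15 and 5.48 against 2.08 and 1.36. For both genes, the arrays of large intestine lay close together and below those of small intestine.

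Vil1, the microvillus protein villin, and Tm4sf20 were high on all 4 arrays, between 5.05 and 5.95. Over the 7 markers the mean log2 ratio was 5.06 and 5.68 in small intestine, 3.97 and 2.64 in large intestine, and between -0.64 and 1.55 on the 24 arrays of other organs. All 7 were well above background on the small intestine arrays and on the first large intestine array, and 6 on the second, Sis being the exception. Of 11 colon epithelium markers 2 had a named probe. Mptx1 (6.68 and 6.72) and Plet1 (6.10 and 5.83) were high on both large intestine arrays, which differed by less than 1 in each. In small intestine Mptx1 was high too (5.74 and 3.36), whereas Plet1 read 0.65 and 0.08. On the 24 arrays of other organs Mptx1 lay between -0.17 and 0.21, whereas Plet1 lay between -2.15 and 6.73 with a median of 3.38 and was as high in eyes (mean 6.25). The mean over these 2 markers was 6.39 and 6.27 in large intestine and 3.19 and 1.72 in small intestine.

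Markers of other cell types were read on the same arrays. The mean of 4 smooth muscle markers was 2.55 and 3.05 in large intestine and 1.35 and 2.05 in small intestine. The mean of 9 blood and immune markers was -0.13 and -0.38 in large intestine and 0.05 and -0.15 in small intestine. The mean of 8 hepatocyte markers was 0.57 and 0.53 in large intestine and 0.96 and 0.93 in small intestine, within the range of 0.05 to 1.30 on the 24 arrays of other organs, and 6.51 and 6.61 in liver. All 8 were well above background on both liver arrays, 6 and 7 on the small intestine arrays, and 6 and 5 on the large intestine arrays. Among them Nr1i3 read 3.77 and 3.97 in small intestine, C4bp, a complement inhibitor, 2.72 and 2.81 in large intestine, and F13b, a subunit of coagulation factor XIII, was not well above background on any intestine array. Amy2a5, pancreatic amylase and the only acinar marker with a named probe, was not well above background on any liver or intestine array. The part of each cell type in the Cps1 values was not tested.

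**Figure D3:**
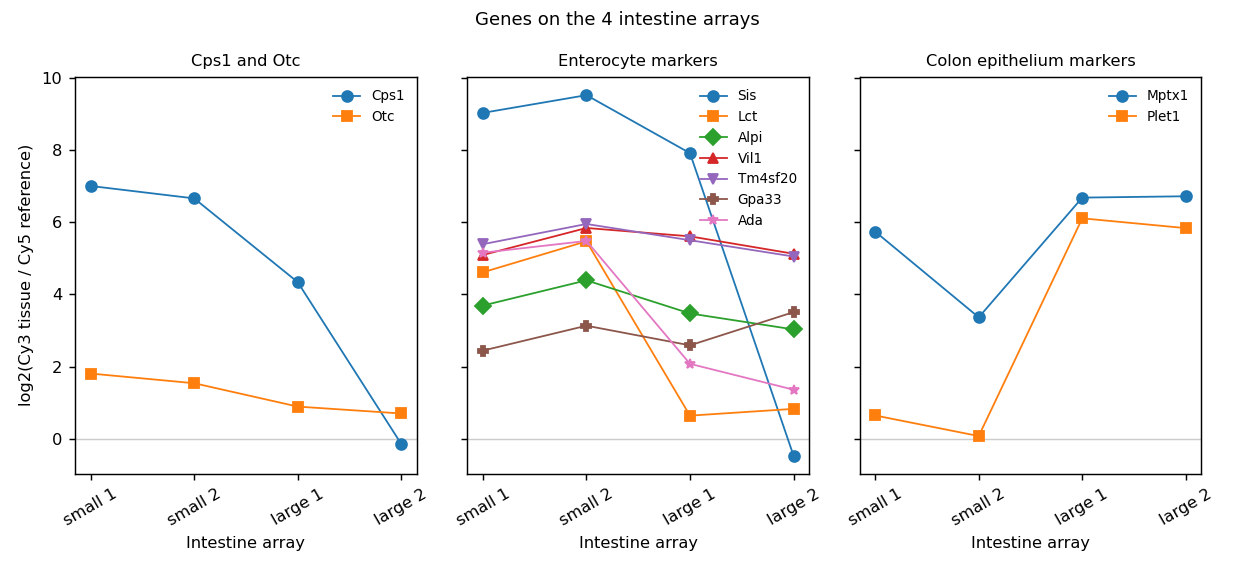
Log2 ratio of tissue to reference RNA on the 2 small and 2 large intestine arrays for Cps1 and Otc, for 7 enterocyte markers and for 2 colon epithelium markers; lines join the values of a gene and carry no order of replicates. Cps1 and Sis differ between the first and the second large intestine array (4.34 and -0.14, 7.91 and -0.46), while the colon markers are level there.

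The enzymes that work beside Cps1 were compared across probes with limma, in which a probe is called at a Benjamini-Hochberg adjusted p under 0.05 and a log2 difference of at least 1. In liver against the mean of the 12 organs 26.9% of all probes were called, 11.5% as higher and 15.4% as lower. Otc was the only other gene of the 9 in the urea cycle list with a named probe. It encodes ornithine transcarbamylase, which takes up the product of Cps1 to make citrulline. Otc read 3.64 and 3.58 in liver, 1.81 and 1.54 in small intestine, and 0.89 and 0.70 in large intestine. On the 24 other arrays it lay between -0.05 and 1.54 with a median of 0.20. Both liver arrays lay well above all of those, of which muscle replicate 1 was the highest, and the second small intestine array was level with that muscle array.

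Otc was higher in liver than in the 12 organs by 3.30 ± 0.12 (SE, adjusted p = 4.84e-14) and in small intestine by 1.36 ± 0.12 (adjusted p = 3.28e-08). The small intestine value was 0.85 with median centring, below the threshold of 1. Liver was higher than small intestine by 1.94 ± 0.16 (adjusted p = 1.74e-08). Small intestine and large intestine differed by 0.88 ± 0.16, which did not reach a log2 difference of 1, nor did it with either large intestine array left out. Without the second small intestine array it was 1.01 and was called. The 2 large intestine arrays of Otc were 0.19 apart.

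Of 19 genes of glutamine and ammonia metabolism 2 had a named probe. Glul, glutamine synthetase, which fixes ammonia into glutamine, read 3.10 on both liver arrays and -1.40 and -1.35 in small intestine. The 24 other arrays lay between -0.03 and 2.71 with a median of 1.36. Liver was thus above and small intestine below all of them. Glul was higher in liver than in the 12 organs by 1.86 ± 0.32 (adjusted p = 8.27e-05) and lower in small intestine by 2.61 ± 0.32 (adjusted p = 2.25e-06). In large intestine it read 0.10 and 2.54, so that here too the arrays were apart, with the first array nearer to small intestine. Cad, the cytosolic enzyme whose carbamoyl phosphate serves pyrimidine synthesis, read -2.07 and -1.97 in liver and -2.06 and -1.71 in small intestine. It was not called in any of the 4 comparisons, but within scan day 3 it was called lower in small intestine than in the other organs (-1.30, adjusted p = 0.000113).

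Amino acid breakdown, which supplies the nitrogen, had 15 of 42 listed genes with a named probe, all past the filter. In liver 11 of the 15 were higher than in the 12 organs and none lower, with a median difference of 1.34 against -0.10 over all probes tested. The mean log2 ratio of the 15 genes was 2.61 and 2.57 on the liver arrays. In kidney it was 1.96 and 2.08, and in heart 1.18 and 1.09. The count of higher genes lay between 8 and 13 over the other ways of processing. Agxt, alanine-glyoxylate aminotransferase, read 6.34 and 6.44 in liver and 2.57 and 2.30 in small intestine, with the 24 other arrays between -0.45 and 0.62. Its liver difference was 6.50 ± 0.15 (adjusted p = 2.94e-17), from a level well above background on only 3 of those 24 arrays. Ahcy, which splits S-adenosylhomocysteine, was higher by 4.85 ± 0.11 (adjusted p = 3.37e-17), Afmid of tryptophan breakdown by 3.73 ± 0.21, and Abat, GABA transaminase, by 3.54 ± 0.18. The others called were Acadsb, Hibch, Acat1, Adi1, Scly, Ivd and Mut, by between 1.11 and 2.10. Hibch was not called with slide as a random block (1.22, adjusted p = 0.067), with median centring (0.94) or with Cy3 alone (0.87). Acadsb fell to 0.88 with median centring and with Cy3 alone, and Ivd to 0.90 with median centring, below the threshold of 1. Those not called were Aga, Acad8 and Ado, with differences of 0.26, 0.90 and -0.80, and Acmsd, which was not well above background on either liver array. Of the genes called, Acat1, Ivd and Mut had a higher mean in kidney (3.07, 2.85 and 3.02) than in liver, and Hibch in heart (2.85). The other genes called had their highest mean in liver.

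In small intestine against the 12 organs, where 23.6% of all probes were called (12% higher and 11.6% lower), 3 of these 15 genes were higher and 4 lower. The higher ones were Agxt by 2.54 ± 0.15 (adjusted p = 9.85e-11), Ahcy by 1.85 ± 0.11 and Abat by 1.65 ± 0.18. The lower ones were Acadsb (-1.85 ± 0.17), Ivd (-1.51 ± 0.18), Adi1 (-1.50 ± 0.16) and Hibch (-1.31 ± 0.34). Acadsb, Ivd and Hibch act in the breakdown of branched-chain amino acids, and Adi1 in methionine salvage. The median difference of the 15 genes was -0.41, against -0.10 over all probes. The number higher was 3 in each of the alternatives run, and the number lower lay between 3 and 6.

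**Figure D4:**
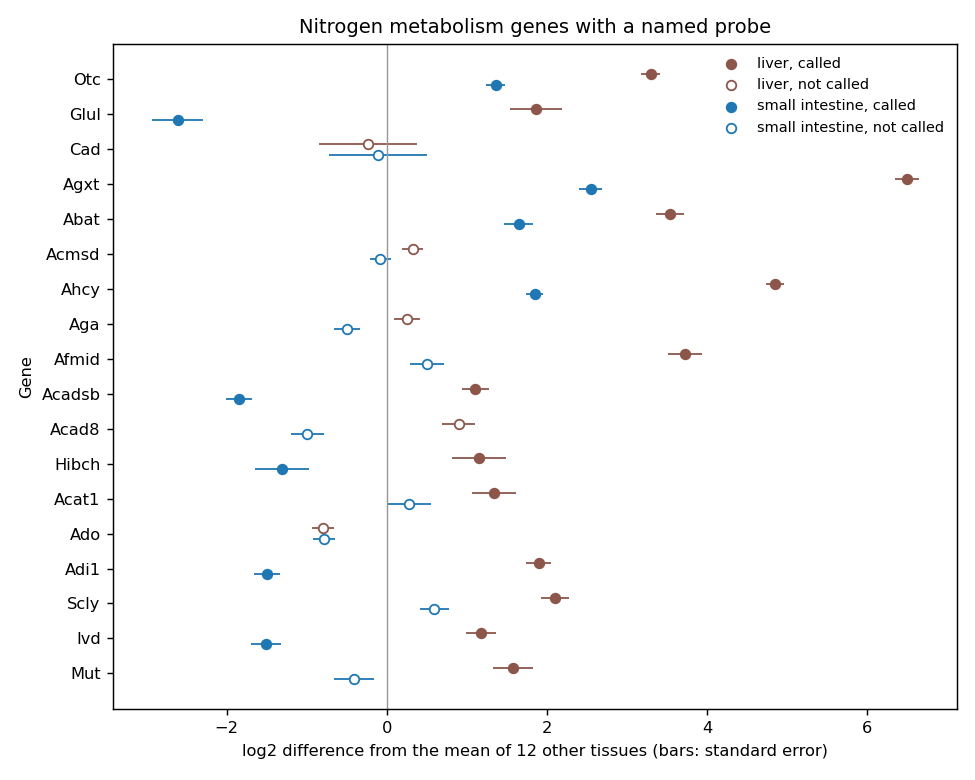
Log2 difference from the mean of 12 organs outside liver and intestine for 18 genes of the urea cycle, glutamine and ammonia, and amino acid lists other than Cps1, in liver (brown) and small intestine (blue), which share those 12 organs; bars are standard errors, and filled symbols passed the threshold. Liver values are mostly above 0 (Agxt 6.50, Otc 3.30), and small intestine values lie on both sides (Agxt 2.54, Glul -2.61).

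Liver and small intestine were also compared directly, with 24.6% of all probes called (11.1% higher in liver and 13.5% lower). Of the 15 amino acid genes 12 were higher in liver and none lower, with a median difference of 1.99 against -0.01 over all probes. Agxt differed by 3.96 ± 0.20 (adjusted p = 1.08e-11). With the scanner's processed signals that difference was 1.64 and its adjusted p 0.227, so the call was lost. Adi1 differed by 3.39 ± 0.22, Afmid by 3.22 ± 0.28, and Glul by 4.48 ± 0.44. Between small and large intestine, where 11.4% of probes were called (6.33% higher in small intestine and 5.04% lower), the only amino acid gene called was Acat1, higher in small intestine by 1.32 ± 0.38 (adjusted p = 0.0213). Acat1 was not called without the second large intestine array (0.55, adjusted p = 0.498) or without either small intestine array (1.27 and 1.36, adjusted p = 0.13 and 0.0713). Without the first large intestine array Hibch (1.78), Mut (1.59) and Ivd (-1.40) were called as well, and without the second Agxt (1.22).

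Of 21 regulators of liver and gut genes 4 had a named probe. Nr1i3, the nuclear receptor CAR that responds to foreign compounds, read 4.54 and 4.70 in liver, 3.77 and 3.97 in small intestine, and 0.45 and 0.85 in large intestine. The 24 other arrays lay between 0.01 and 0.48. Liver and small intestine were thus far above all other organs, without the first large intestine array standing out. Nr1i3 was higher in liver than in the 12 organs by 4.42 ± 0.11 (adjusted p = 1.06e-16) and in small intestine by 3.68 ± 0.11 (adjusted p = 7.93e-15), both from a level well above background on only 6 of the 24 arrays. The difference between liver and small intestine, 0.75 ± 0.15, did not reach 1. Small intestine exceeded large intestine by 3.22 ± 0.15 (adjusted p = 3.15e-11), a call that was made with either large intestine array left out and was lost with the scanner's processed signals (1.38, adjusted p = 0.085).

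Nr5a2, the nuclear receptor LRH-1, was well above background on 5 arrays, namely both of liver, both of small intestine and the first of large intestine. It read 1.1 and 1.24 in liver, and the 24 arrays of the 12 organs, none well above background, lay between -1.80 and -0.22. It thus passed the filter only through liver and small intestine, and no test against the 12 organs is given. Elf3, an epithelial factor of the ETS family, read 2.25 and 3.10 in small intestine and was higher there than in the 12 organs by 2.89 ± 0.32 (adjusted p = 5.68e-07). In liver Elf3 read -1.11 and -0.99 and was lower than in small intestine by 3.73 ± 0.43. Creb1, which binds cAMP response elements, was not called in any of the 4 comparisons, but without the first large intestine array it was called higher in small than in large intestine (1.99, adjusted p = 1.6e-07, against 1.01). No probe with a symbol here stood for the other 17 regulators listed, among them Hnf4a, Cebpa and Cdx2.

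Cps1 lies on mouse chromosome 1, and the genes next to it in the study's list of that chromosome were read on the same arrays. All 10 neighbours, 6 before and 4 after Cps1, had a named probe, and 9 passed the filter, with Erbb4 left out. In liver none of the 9 was higher than in the 12 organs and 2 were lower, where 11.5% and 15.4% of all probes were called. Myl1, a myosin light chain of skeletal muscle, was not well above background on either liver array and lower there (adjusted p = 0.000152), but with slide as a random block it was not called (adjusted p = 0.0615). Ikzf2, a zinc finger factor of lymphocytes, was not well above background on either liver array and lower there (adjusted p = 6.98e-07), a call lost with median centring, with Cy3 alone, within scan day 1 and without the second liver array. In small intestine none was higher and 3 were lower, namely 1110028C15Rik, Myl1 and C530042K13Rik, where 12% and 11.6% of all probes were called. Myl1 (-1.41) was not called there with processed signals (-0.15), with the authors' table (-0.34) or with median centring (-0.82). C530042K13Rik (-1.31) was not called there within scan day 3 (-0.25), with median centring (-0.94) or with Cy3 alone (-0.96). The number lower in small intestine lay between 1 and 5 over the alternatives.

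Lancl1, which the list puts right before Cps1, read 0.17 and -0.06 in liver and -0.43 and -0.55 in small intestine, with its highest organ mean, 2.12, in brain cortex. C530042K13Rik, right after Cps1, read 1.42 and 1.40 in liver and was highest in kidney (3.52). Acadl, a fatty acid dehydrogenase of mitochondria, read 2.35 and 2.47 in liver and was highest in heart (4.66). Rpe, of the pentose phosphate pathway, read 0.76 and 0.67 in liver and 0.64 and 0.20 in small intestine, with its highest mean, 0.92, in fat, whose second array alone read 1.64. Liver was the next highest organ for Rpe, which was called higher in liver than in the others without the bone and fat arrays (1.03, adjusted p = 0.00197), with the scanner's processed signals and with the authors' table. None of the 9 neighbours, Rpe included, had its highest mean in liver or small intestine.

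The 15 organ means of Cps1 were compared by Pearson's r with those of the other 5000 named probes past the filter, as a description. The organ means share their arrays and reference across genes, and in Cps1 the means far from the others are those of liver and small intestine. The closest was Nr1i3 (r = 0.989), followed by Agxt (r = 0.948). After them came 4930515G13Rik (0.920), 1810055G02Rik (0.916), 3110021N24Rik (0.910), 2210417A02Rik (0.907), 1810044K17Rik (0.896), 9130404D08Rik (0.895), Olfr55 (0.892) and Nr5a2 (0.887). All 10 had liver or small intestine as their highest organ, and 3 of them (4930515G13Rik, 1810055G02Rik and 1810044K17Rik) were higher in small intestine. 4930515G13Rik read 2.58 and 2.88 in liver, 4.57 and 4.63 in small intestine, and 2.23 and 0.27 on the large intestine arrays, with the first higher as for Cps1. By Spearman's rho only 1 of the 10 remained among the closest.

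**Figure D5:**
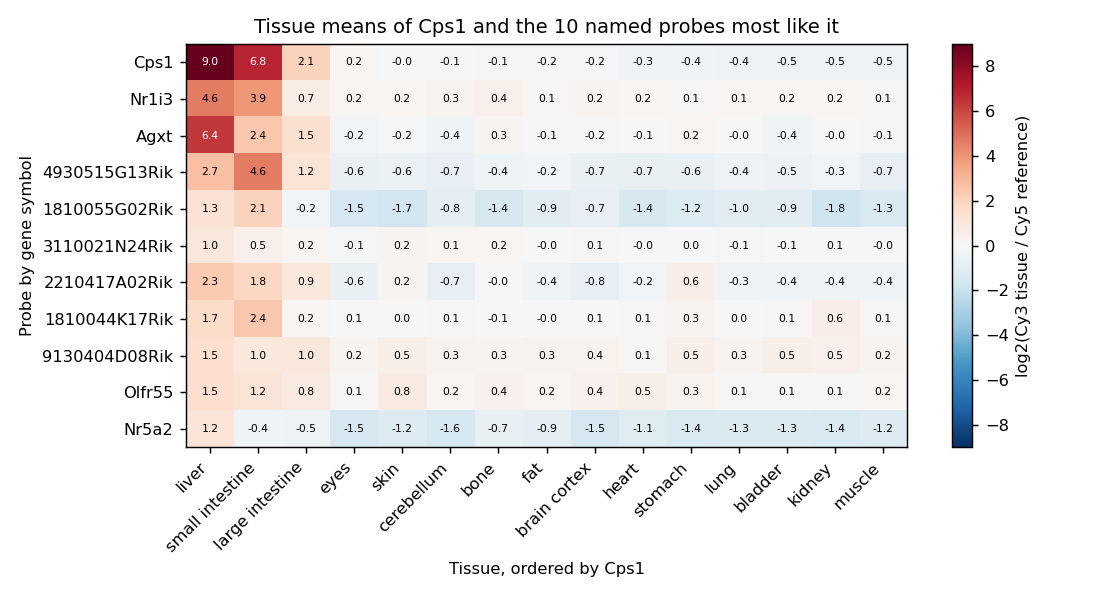
Mean log2 ratio of tissue to reference RNA (colour and printed value) in 15 organs, ordered by Cps1, for Cps1 and the 10 named probes with the highest Pearson r over the organ means. Nr1i3 (4.6 in liver, 3.9 in small intestine) and Agxt (6.4 and 2.4) are the closest to Cps1 (9.0 and 6.8), and 4930515G13Rik is higher in small intestine (4.6) than in liver (2.7).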

How the data were processed

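Total RNA of 15 organs was hybridised by the authors in Cy3 against a common reference in Cy5 on 30 2-colour oligonucleotide arrays without dye exchange, and scanned with Agilent Feature Extraction 9.5.1.1, per the submitters' processing notes. The deposited spot files hold each channel's mean, background and processed intensity for 43451 spots. The deposited value table holds log10 values of 25030 probes with column medians of 2.50 to 2.65. Its differences between arrays equalled those of the software's processed log ratios within 0.01 log2 for 97.6 to 99.1% of bright probes in 4 pairs of arrays, so it runs as organ over reference; how the authors centred each probe stays unknown.

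Intensities were corrected by normexp (offset 50) and normalised by loess within arrays, with control spots at weight 0 and 475 outlier spots removed, in limma 3.58.1 (R 4.3.3). Probes well above background in Cy3 on both arrays of at least 1 organ were kept (21019). One coefficient per organ was fitted to 30 arrays with lmFit and eBayes, two-sided, with Benjamini-Hochberg adjustment within each comparison over all probes kept. The fit was tested on simulated data. P-values rest on the spread between the 2 arrays of an organ, pooled over all organs. The wide gaps in fat, large intestine and bone thus enter every comparison, and the spread of the organs compared is not measured alone. The number of arrays limits the precision.

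Symbols came from the study's gene lists and reached 5622 of the 25030 probes, each with 1 symbol; the rest are unnamed here, and 5148 of the named probes matched a current RefSeq symbol. Cps1 and the lists were chosen with earlier results of these data known. Of the listed genes, 2 are not reported here. Named were Cps1, the members of the gene lists and chromosome 1 neighbours that have a symbol, and the 10 probes most like Cps1. Alternatives were processed signals, median centring, Cy3 alone, the authors' table, an offset of 16, no filter, blocks for replicate, slide and scan day, and each liver or intestine array left out. Added after seeing the data were fits within scan days 1 and 3 and without bone and fat. Figures were drawn with matplotlib 3.10.9.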

Additional observations from a re-analysis of the deposited data

How the results depend on the processing

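The Cps1 gap between liver and the 12 organs was 10.41 with processed signals, 7.81 with median centring, 8.53 with Cy3 alone, 10.17 with the authors' table, 9.66 with an offset of 16 and 9.47 with scan day as a block. The gap between liver and small intestine was 1.25 with processed signals, 2.46 with Cy3 alone, 1.25 with the authors' table, 1.81 with an offset of 16, 3.03 with slide and 3.12 with scan day as a block. The gap between small and large intestine, 4.73, was 3.73 with slide and 3.72 with scan day as a block, 3.92 with median centring and 5.74 with processed signals, all within the spread of its 2 large intestine arrays. Probes called between small and large intestine numbered 1331 with median centring and 1378 within scan day 3, against 2390; the cause was not tested, beyond the fewer arrays within a day. None of these Cps1 gaps changed sign. Of all Cps1 gaps and counts of calls under the alternatives, 93 moved by less than the spread between arrays or 1.5 times, and 17 by more. The 93 include every gap between small and large intestine, even 2.49 and 6.97, because the spread of the large intestine arrays (SD 3.17) is wide. Among listed genes C4bp, not called in small intestine against the 12 organs (0.94), was called lower within scan day 3 (-1.28) and higher without bone and fat (1.23).

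With each liver or intestine array left out in turn, the liver gap to the 12 organs ranged from 9.11 to 9.30, that to small intestine from 1.96 to 2.31, and that between small and large intestine from 2.49 to 6.97. The probes called between small and large intestine ranged from 1129 without the second large intestine array to 5748 without the first, and were 1291 without the first small intestine array. The lone array left was assumed to vary like the other organs.

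Same-numbered arrays deviated together with r over 0.1 in 33 of 105 pairs of organs (median r = 0.0474, from -0.246 to 0.342). This cannot tell whether same-numbered arrays came from the same animal, and the main fit used no pairing. With replicate as a block the Cps1 gaps stayed at 9.21, 2.13 and 4.73, and the counts of calls were 5670, 4957, 5193 and 2460. Median centring moved the share of calls that were higher in small intestine than in the 12 organs from 50.7% to 37.8%. Signals near background limit the values of Cps1 on the second large intestine array and outside liver and intestine.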
